A study of Mus musculus with 3 samples.

Results

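Interferon-stimulated genes that lie outside the large interferon-induced families were compared between macrophages stimulated with LPS alone and macrophages given 1 of 2 tea leaf strains of Lactiplantibacillus plantarum, LOC1 or LOC3, before LPS. The set held 37 genes, found by their gene names among the 36864 gene names on the array. It was drawn up by name, with earlier results of these data known. The members were Ifit1, Ifit2 and Ifit3, the genes of the ISG15 system (Isg15, Uba7, Ube2l6, Herc6 and Usp18), and others that act on nucleic acids, in the nucleus, in signalling, at membranes and at the cell surface.

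The cells were RAW264.7, a macrophage line derived from mouse. RNA was collected 3 h after LPS, the cell wall component of Gram-negative bacteria that activates TLR4, and the sample labels state that lactobacilli had been present for 12 h before it, whereas the methods give a longer time. The 3 groups LPS, LOC1 + LPS and LOC3 + LPS had 1 one-colour Agilent array each, so no SD, test or p-value could be given for any difference between them. An array of unchallenged macrophages was not analysed here, and that condition entered only through the deposited log2 ratios of each group to it. In RNA from a whole culture, more RNA per cell and more responding cells cannot be told apart.

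Type I interferons bind the receptor formed by Ifnar1 and Ifnar2, and the kinases Jak1 and Tyk2 then pass the signal on to the nucleus. There a complex that contains Irf9 binds the interferon-stimulated response element in target promoters. Macrophages that sense LPS through TLR4 produce interferon beta by way of Irf3, so that genes of this kind are induced both directly and by the secreted interferon.

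Each array held 59305 spots that were not controls, and 51.9%, 50.4% and 47.8% of probes were well above background with LPS, LOC1 + LPS and LOC3 + LPS. All 7 macrophage markers were detected on every array, whereas of 9 markers of T cells, B cells and epithelium only Cd3e was detected on all 3, Ms4a1 on the arrays of LPS and LOC1 + LPS, and Epcam on that of LPS. Intensities are given as the scanner software processed them. Differences are log2 intensities less the 75th percentile of each array, which lay at an intensity of 544, 504 and 508 in the order above. The brightest probe stood for its gene, and a gene was called higher or lower at 2-fold. From probes printed 10 times on each array, spot noise in the log2 difference of an array pair had an SD of 0.06, or 0.30 for dim probes. This technical SD leaves out the variation between cultures. A difference beyond 2 technical SD was used as a second threshold, which was chosen after the values were seen.

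Of the 37 members, 36 were well above background on all 3 arrays. Plac8, a small cysteine-rich protein of myeloid cells, was not well above background on any, with intensities of 8.72, 3.14 and 4.38, and no difference is given for it. Among the detected members, Epsti1 gave the only signal in the dim class, at 141 with LPS.

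The promoters show where members differ in sequence. RefSeq entries of the GRCm38.p6 build, covering 250 bases before the start site and 50 after it, were found for 30 of the 37 members. There was no entry for Usp18, Batf2, Ifi27l2a, Tor3a, Rtp4, Ly6e and Ms4a6d. The core of the interferon-stimulated response element, GAAA, any 2 bases and again GAAA on either strand, occurred in the window of 7 of these 30 members and in 3.99% of the 27025 genes with an entry, or 3.44% of all 32851 promoters. The 7 were Ifit1, Ifit3, Isg15, Ddx60, Lgals9, Tdrd7 and Shisa5. The gamma-activated sequence TTCNNNGAA was found in 4 members (Isg20, Shisa5, Ifi35 and Ifit2) and in 9.55% of genes, and the 2 motifs overlapped in Shisa5 alone. The kappa B motif, read as GGGA, any base and TTTCC, was found in 0 members and in 0.466% of genes. Such a match is a description of letters and not of a bound site. The 250 bases before the start are printed for 6 members, 5 with the core motif and Cmpk2 without it, since these include both the largest and some of the smallest differences with lactobacilli. Capitals mark each match to the core motif, which reads TTTC, any 2 bases and TTTC on the other strand.
Ifit3: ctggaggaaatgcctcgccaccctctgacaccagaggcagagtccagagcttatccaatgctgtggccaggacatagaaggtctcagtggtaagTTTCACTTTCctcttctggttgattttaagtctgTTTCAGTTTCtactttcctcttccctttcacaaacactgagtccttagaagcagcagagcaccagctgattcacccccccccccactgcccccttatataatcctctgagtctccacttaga
Ifit1: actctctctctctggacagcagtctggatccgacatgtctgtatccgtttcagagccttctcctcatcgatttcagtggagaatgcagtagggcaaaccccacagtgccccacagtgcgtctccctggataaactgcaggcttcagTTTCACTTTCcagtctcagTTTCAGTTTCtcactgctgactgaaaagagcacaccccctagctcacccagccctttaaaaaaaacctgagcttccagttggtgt
Isg15: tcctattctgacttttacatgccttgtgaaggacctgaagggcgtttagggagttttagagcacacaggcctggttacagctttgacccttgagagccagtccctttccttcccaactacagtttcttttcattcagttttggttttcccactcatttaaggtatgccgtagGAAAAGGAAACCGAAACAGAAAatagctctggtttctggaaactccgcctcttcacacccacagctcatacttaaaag
Ddx60: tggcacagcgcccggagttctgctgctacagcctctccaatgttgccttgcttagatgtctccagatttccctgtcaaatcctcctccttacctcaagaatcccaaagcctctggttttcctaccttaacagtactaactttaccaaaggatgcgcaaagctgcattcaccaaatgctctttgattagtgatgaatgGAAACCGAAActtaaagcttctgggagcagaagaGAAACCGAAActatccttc
Lgals9: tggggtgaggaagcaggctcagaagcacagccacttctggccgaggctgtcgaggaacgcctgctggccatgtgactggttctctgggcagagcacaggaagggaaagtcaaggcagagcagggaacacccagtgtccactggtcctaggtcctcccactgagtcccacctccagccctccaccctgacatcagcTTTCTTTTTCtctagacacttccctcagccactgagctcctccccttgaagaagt
Cmpk2: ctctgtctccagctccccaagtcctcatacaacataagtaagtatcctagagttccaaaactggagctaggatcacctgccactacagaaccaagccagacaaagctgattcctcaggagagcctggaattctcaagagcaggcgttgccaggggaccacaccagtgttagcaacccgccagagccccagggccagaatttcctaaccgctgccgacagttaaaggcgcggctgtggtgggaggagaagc
The printed stretches are, in that order, chr19:34583279-34583528 on the plus strand, chr19:34640639-34640888 (plus), chr4:156200819-156201068 (minus), chr8:61927837-61928086 (plus), chr11:78984925-78985174 (minus) and chr12:26468965-26469214 (plus). Matches began 156 and 122 bases before the start in Ifit3, 104 and 85 bases before it in Ifit1, and 53 and 19 bases before it in Ddx60. In Isg15, 3 matches overlapped, beginning 78, 72 and 66 bases before the start. Lgals9 had 1 match 55 bases before the start and another 16 bases after it, which is not printed.

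LPS alone was compared with unchallenged macrophages first, to set the level from which the strains started. In the deposited log2 ratios, which were listed only at 2-fold or more, 34 of the 37 members were higher with LPS and 0 were lower. Over all gene names well above background on the LPS array, 14.4% were listed as higher. The median over the 34 members was 3.87 on the log2 scale, with a range from 1.18 for Shisa5 to 11.54 for Ifit1. For Ifit1, Ifit3 and Epsti1 the ratio implied an unchallenged signal too dim to be measured, below an intensity of 16.3, at which signals became well above background with LPS. Their changes are therefore bounds, at least 2372-fold for Ifit1, at least 776-fold for Ifit3 and at least 8.65-fold for Epsti1. Cmpk2 was 716-fold higher, Ifit2 277-fold, Isg15 224-fold and Usp18 217-fold. Over all 36864 gene names the share was 9.64%. Of the 3 members not listed, Ly6e had a blank cell whose ratio, rebuilt from another column, was 0.71, and Ms4a4c and Plac8 had no entry. For 6 of the 34 members (Pnpt1, Sp110, Ifi35, Rnf213, Xaf1 and Ifi27l2a) the listed ratio came from a probe other than the brightest.

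With either strain before LPS, the members lay above LPS alone, most of them by less than 2-fold. Ifit3, Cmpk2, Ifi27l2a and Ms4a6d rose at least 2-fold with LOC1, and the same 4 rose with LOC3. These 4 of the 36 compared stand beside 2.48% of all genes compared that were called higher with LOC1 and 2.95% with LOC3. No member was called lower, against 3.83% and 3.22% of all genes. The difference was above 0 for 35 members with LOC1 and 36 with LOC3, against 49.9% and 51.3% of all genes. Beyond 2 technical SD, 34 members were higher with LOC1 and 33 with LOC3, and 0 were lower with either. Of all genes, 26.4% and 28.5% were higher and 23.6% and 20.9% lower. These shares do not rest on equal thresholds, since dim genes had to pass the larger SD and Epsti1 was the only dim member compared. The median over the members was 0.38 with LOC1 and 0.38 with LOC3, beside -0.00 and 0.01 over all genes. The members' median rank was the 97.8th percentile of probes on the LPS array, so most genes compared were dimmer. RefSeq probes at or above the 75th percentile of that array had medians of 0.05 and 0.07. The control genes Gapdh and Actb differed by 0.26 and 0.03 with LOC1 and by 0.30 and 0.08 with LOC3. Under quantile normalization the members' medians stood 0.28 and 0.27 above that of all genes. Scaling each array by its median moved the median of all genes to 0.22 with LOC1 and 0.20 with LOC3, and the members' medians then stood 0.38 and 0.37 above it. That scaling also turned the split of all calls with LOC1, from 497 higher and 766 lower to 884 higher and 471 lower. Both comparisons share the LPS array, so a low or high LPS signal moves both in the same direction.

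**Figure D1:**
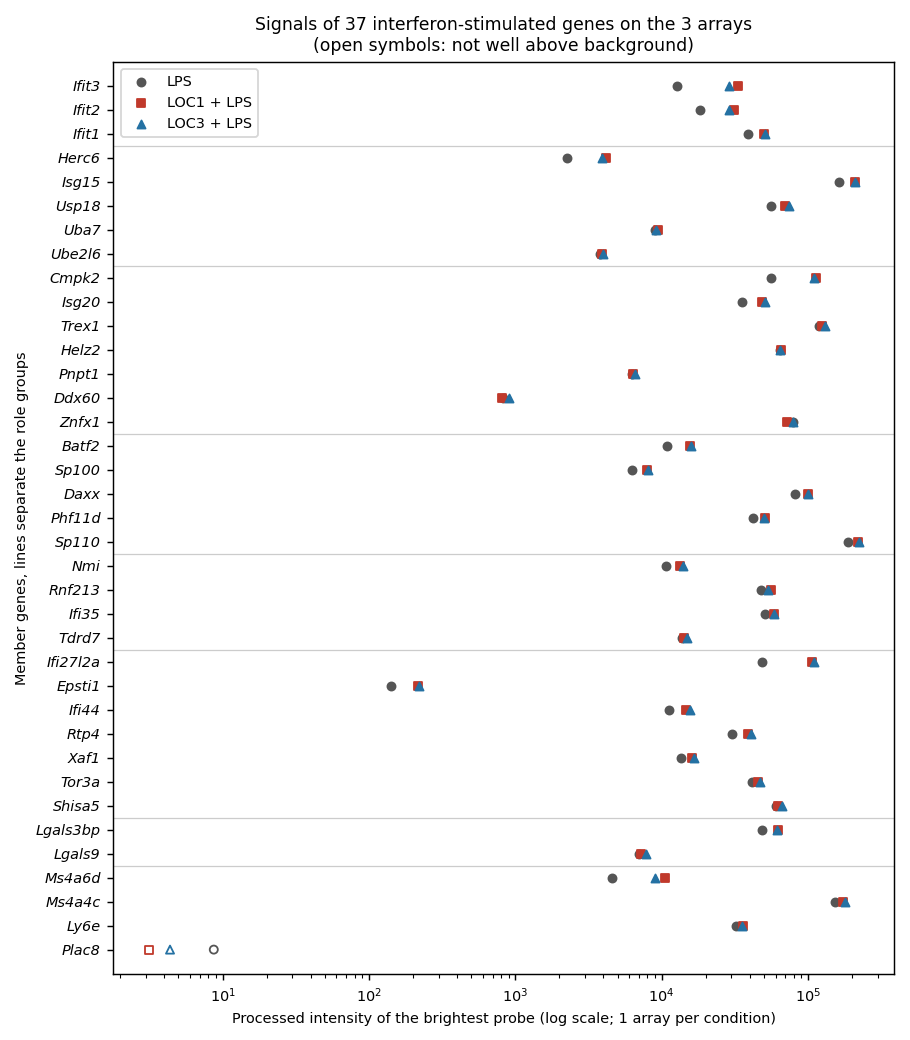
Processed intensity of the brightest probe of each of the 37 members (log scale) on the arrays of LPS (circles), LOC1 + LPS (squares) and LOC3 + LPS (triangles), 1 array per condition, with open symbols for signals not well above background and lines between the role groups. The LPS symbol lies to the left for most members, farthest for Ifit3, Ifi27l2a, Ms4a6d and Cmpk2, and Plac8 is the only member with open symbols.

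**Figure D2:**
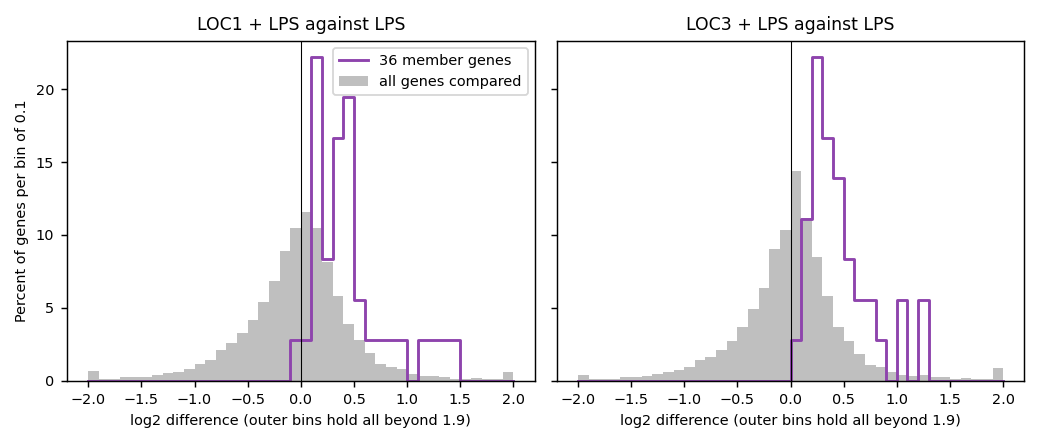
Percent of genes per bin of 0.1 in the log2 difference from LPS, for LOC1 (left) and LOC3 (right), with all genes compared in grey and the 36 members as a purple line; the outer bins hold all values beyond 1.9. The grey distribution is centred near 0 (medians -0.00 and 0.01), and the members lie from -0.03 to 1.50 with LOC1 and from 0.09 to 1.29 with LOC3.

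The IFIT proteins bind viral RNA that lacks the cap marks of host RNA. Ifit3 gave intensities of 12660 with LPS, 33122 with LOC1 + LPS and 28854 with LOC3 + LPS. With LOC1 it rose by 1.50 on the log2 scale (2.82-fold), the largest difference of the members. With LOC3 it rose by 1.29 (2.44-fold), within the technical SD of the value of Ifi27l2a, and the order of these genes turned under normexp background correction (1.25 and 1.28). Ifit2 gave intensities of 18277, 31125 and 28896 in the same order. Its differences of 0.88 and 0.76 did not reach 2-fold, although that with LOC1 was 1.098 under median scaling. Ifit1 gave intensities of 38702, 50431 and 50700. Both lactobacilli arrays lay above the LPS array by 0.49 for Ifit1, a smaller difference than for the other IFIT genes.

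ISG15 is a ubiquitin-like protein that Uba7 activates, Ube2l6 transfers and Herc6, its main ligase in the mouse, attaches to other proteins, while Usp18 removes it and also restrains the interferon receptor. No gene of this system reached 2-fold. Herc6 came closest, with intensities of 2266 for LPS, 4155 for LOC1 + LPS and 3940 for LOC3 + LPS. Its differences were 0.98 with LOC1 (1.98-fold) and 0.90 with LOC3 (1.86-fold). Under median scaling they were 1.20 and 1.09, and by the deposited ratios 1.02 and 0.94, so the processing decides the call. Ube2l6 gave intensities of 3783, 3927 and 3999, with differences of 0.16 and 0.18. Uba7 gave intensities of 9064, 9499 and 9192, with differences of 0.18 and 0.12, the latter within 2 technical SD. The ligase gene thus differed more than the genes of the activating and transferring enzymes with both strains. For Isg15 itself the differences were 0.47 with each strain, and for Usp18 0.42 and 0.51. The brightest probe of Isg15 shares a run of 20 bases with a probe of Gm9706, so its signal may hold RNA of both.

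Among the enzymes and helicases that act on nucleotides and nucleic acids, Cmpk2, a mitochondrial nucleotide kinase, stood apart from the rest. Its intensities were 56135 with LPS, 112600 with LOC1 + LPS and 110162 with LOC3 + LPS. Cmpk2 rose by 1.11 with LOC1 (2.17-fold) and by 1.07 with LOC3 (2.10-fold). Under quantile normalization these values were 0.99 and 0.93, just under the threshold. The exonuclease gene Isg20 differed by 0.56 and 0.61. The other 5 members of the group gave differences of at most 0.24. Trex1, the exonuclease that degrades cytosolic DNA, differed by 0.16 and 0.22, Pnpt1, an RNA exonuclease of mitochondria, by 0.13 and 0.17, Helz2 by 0.14 and 0.11, and the helicase gene Ddx60 by 0.08 and 0.24. Znfx1, a helicase that senses double-stranded RNA, gave intensities of 79021, 71711 and 78520. Its differences of -0.03 with LOC1 and 0.09 with LOC3 were the lowest of all members and within 2 technical SD. Under median scaling the Znfx1 difference with LOC1 was above 0, and under quantile normalization the differences of Znfx1 and Helz2 with LOC3 were below it. Of the promoters printed above, Cmpk2 has no match to the core motif in the window and passed 2-fold. Ifit3 has a pair of matches and also passed 2-fold, and Ddx60 has a pair and differed by at most 0.24. Ifi27l2a and Ms4a6d, which passed 2-fold too, had no promoter entry. Whether the motif bears on the differences was not tested.

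The nuclear members lay in a narrow range, from 0.34 to 0.65 with LOC1 and from 0.34 to 0.66 with LOC3. Batf2, a leucine zipper transcription factor, gave intensities of 10829 with LPS, 15741 with LOC1 + LPS and 15921 with LOC3 + LPS. It was 1.57-fold and 1.58-fold higher with the strains. Sp100, a component of nuclear bodies, differed by 0.43 and 0.45, Daxx, a histone chaperone found there, by 0.38 and 0.38, and Phf11d by 0.38 and 0.34. The Phf11d probe shares a run of 20 bases with a probe of Phf11a. Sp110, another nuclear body protein, gave intensities of 187952, 220980 and 222656, with a difference of 0.34 with each strain. Its brightest probe shares runs of 20 bases with probes of 49 other gene names and its signal cannot be ascribed to Sp110 alone, but 2 of its other probes on the same RefSeq transcript, without such runs, gave 0.24 and 0.40 with LOC1.

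Ifi35 and Nmi, which bind each other, and the RNA granule protein Tdrd7 and the ubiquitin ligase Rnf213 all differed by less than 0.50. Nmi gave intensities of 10740 with LPS, 13316 with LOC1 + LPS and 14102 with LOC3 + LPS, with differences of 0.42 and 0.49. Tdrd7 gave intensities of 13681, 14196 and 14878. Its differences of 0.16 and 0.22 were the smallest of this group, and those of Ifi35 were 0.31 and 0.31 and of Rnf213 0.33 and 0.26.

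Of the members linked to cell death or bound to membranes, Ifi27l2a, a small hydrophobic protein, was the only one to reach 2-fold. Its brightest probe gave intensities of 48297 with LPS, 106602 with LOC1 + LPS and 109716 with LOC3 + LPS. Ifi27l2a rose by 1.25 with LOC1 (2.38-fold) and by 1.28 with LOC3 (2.44-fold). A second, dimmer probe gave 212, 407 and 414, with differences of 1.05 and 1.07. The brightest probe of Ifi27l2a had a blank cell for LPS, with a rebuilt ratio of 0.44 to unchallenged macrophages (1.36-fold), and the dimmer probe was listed at 1.75. For this gene the difference with each strain was thus larger than its LPS ratio by the brightest probe and smaller by the other. Shisa5, a membrane protein that promotes apoptosis, gave intensities of 59965, 62278 and 66288. Its differences of 0.16 and 0.24 were the smallest of this group. The brightest probes of Shisa5 and Trex1 lie close together on chromosome 9 of mm9, from 108960173 to 108960232 and from 108960454 to 108960513, and the design of the array does not show how far a transcript of one reaches into the other. Epsti1 differed by 0.72 and 0.74, Ifi44 by 0.51 and 0.58, Rtp4, a chaperone of membrane receptors, by 0.47 and 0.51, Xaf1, which binds the apoptosis inhibitor XIAP, by 0.35 and 0.39, and Tor3a, an ATPase of the endoplasmic reticulum, by 0.26 and 0.29. Other probes of Ifi44, Xaf1 and Tor3a lay below 0, as given further below.

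Lgals3bp, a secreted protein that binds galectins, gave intensities of 48507 with LPS, 62126 with LOC1 + LPS and 61229 with LOC3 + LPS. Its differences were 0.47 and 0.44. The galectin gene Lgals9 gave intensities of 7020, 7261 and 7759, with differences of 0.16 and 0.24. Ms4a6d, a membrane-spanning protein of myeloid cells, gave intensities of 4569, 10616 and 8972. Ms4a6d rose by 1.33 with LOC1 (2.51-fold) and by 1.07 with LOC3 (2.10-fold), the latter 0.996 and just under the threshold under quantile normalization. Ly6e, a lipid-anchored surface protein, gave intensities of 32428, 35913 and 35443. Its differences were 0.26 and 0.23. Ms4a4c differed by 0.29 and 0.32, but its only probe shares runs of 20 bases with probes of 54 other gene names, so the signal cannot be ascribed to Ms4a4c alone. Without Sp110 and Ms4a4c, a choice made after the data were seen, the median over the members was 0.40 with LOC1 and 0.41 with LOC3.

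**Figure D3:**
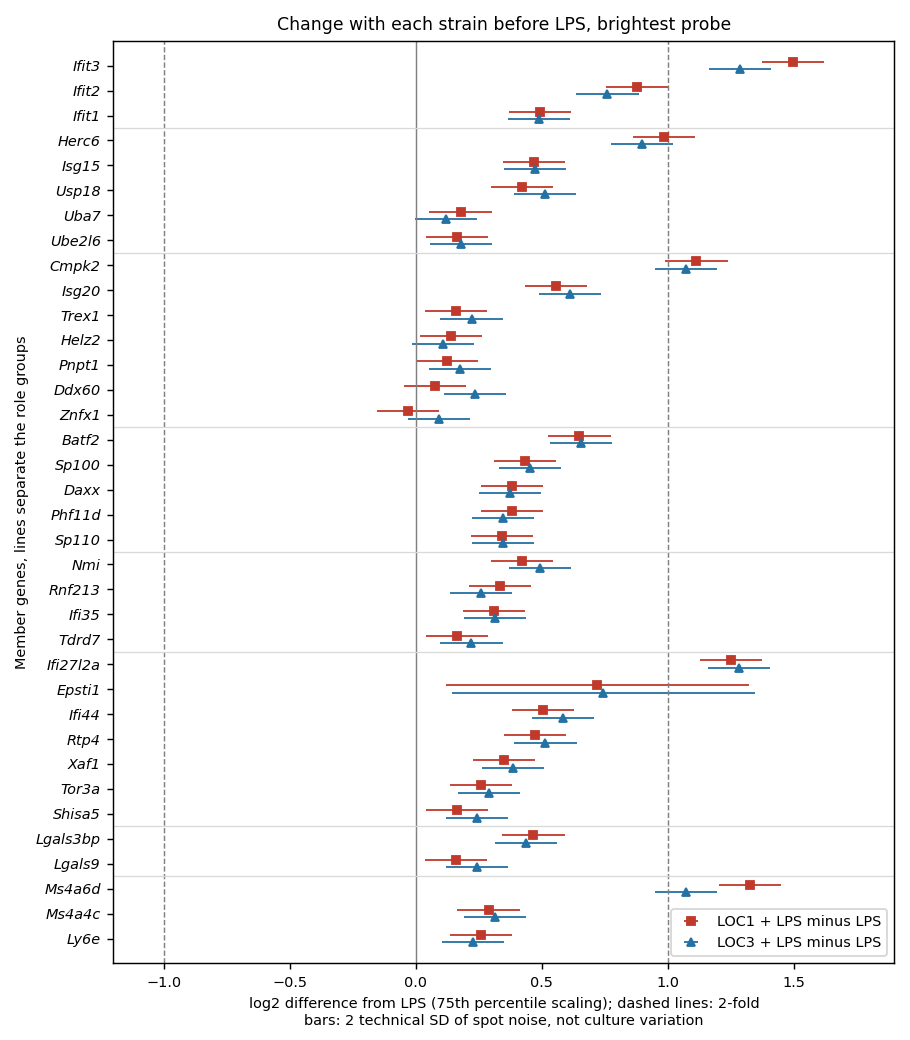
Log2 difference from LPS of the brightest probe of each detected member, for LOC1 (squares) and LOC3 (triangles), with bars of 2 technical SD of spot noise to each side, which do not hold variation between cultures, and dashed lines at 2-fold. Ifit3, Ifi27l2a, Ms4a6d and Cmpk2 lie beyond the dashed line with both strains, Herc6 lies just inside it (0.98 and 0.90), and the wide bars of Epsti1 come from its dim signal.

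LOC1 and LOC3 were compared with each other without the LPS array. None of the 36 members differed 2-fold between the strains, where 0.8% of all genes were called higher with LOC1 and 1.83% lower. Within 2 technical SD lay 33 members, 91.7% of them, against 81.8% of all genes, whose dim probes had the larger SD. Ms4a6d was higher with LOC1 by 0.25 and Ifit3 by 0.21, and Ddx60 was lower with LOC1 (-0.16), each beyond 2 technical SD. Over all genes, 7.5% were higher by that much with LOC1 and 10.7% lower. The second probe of Ddx60 gave 0.04. The difference was above 0 for 13 members, against 45.4% of all genes, and the median was -0.02. Under median scaling 21 members lay above 0 and under quantile normalization 22, so no direction between the strains is given for the set. With 1 culture per strain these values do not show that the strains act alike.

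The LPS ratio of each member was then set beside its further difference with each strain. Of the 8 members listed at 64-fold or more with LPS, Ifit3 and Cmpk2 passed 2-fold with both strains, and the medians of the 8 were 0.50 with LOC1 and 0.55 with LOC3. In the 15 members listed from 8-fold to 64-fold, 0 passed, with medians of 0.34 and 0.34. Herc6 of this class lay just under the threshold (0.98 and 0.90) and passed it under median scaling (1.20 and 1.09). Among the 11 listed under 8-fold, Ms4a6d and Ifi27l2a passed, with medians of 0.31 and 0.31. Of the 4 members called with the strains, 2 were thus listed at 64-fold or more with LPS and 2 under 8-fold. Ddx60 and Znfx1, 41.2-fold and 15.0-fold higher with LPS, had differences of at most 0.24, while Ms4a6d was 5.96-fold higher with LPS and had differences of 1.33 and 1.07. The LPS array enters both the ratio and the difference, so no correlation between them was computed.

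**Figure D4:**
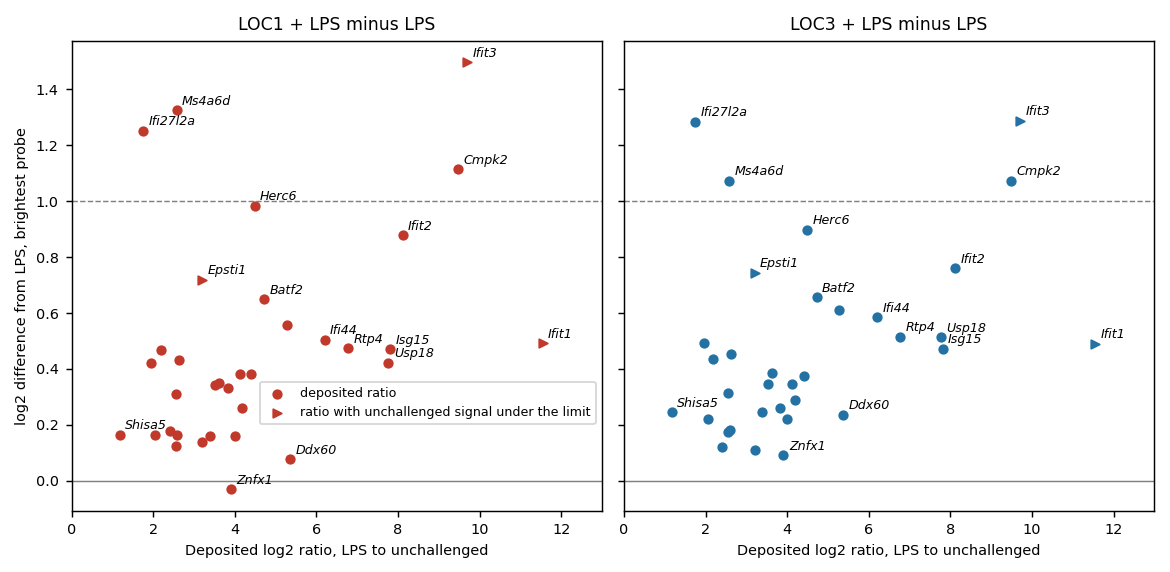
Deposited log2 ratio of LPS to unchallenged macrophages (horizontal axis) against the log2 difference of LOC1 + LPS (left) or LOC3 + LPS (right) from LPS by the brightest probe, for the 34 members with a listed ratio; triangles mark ratios that are bounds and the dashed line 2-fold. Ifit3 and Cmpk2 stand above the line at ratios over 9, Ms4a6d and Ifi27l2a at ratios of 2.57 and 1.75, and the LPS array enters both axes. For 6 of the 34 members, Ifi27l2a among them, the ratio comes from a probe other than the brightest.

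The probes of a gene did not always move together. The members had 60 probes, of which 58 were detected, and 16 members had several. Besides the brightest ones, 22 probes were detected, and 6 of them lay below 0 with each strain. These belonged to Sp100, Sp110, Xaf1 (a pair of probes), Tor3a and Ifi44, genes whose brightest probe lay above 0, and 5 of the 6 were designed on Ensembl transcripts. Ifi44 was the plainest case, chosen after its values were seen. Its brightest probe gave intensities of 11210 with LPS, 14743 with LOC1 + LPS and 15679 with LOC3 + LPS, while its second probe, on an Ensembl transcript, gave 524, 271 and 243. The second probe differed by -0.84 with LOC1 and fell by 1.01 with LOC3, past 2-fold. When the detected probes of a gene were averaged, the differences of Xaf1 (-0.22 and -0.23), Tor3a (-0.34 and -0.13) and Ifi44 (-0.17 and -0.21) lay below 0, so the direction of these 3 genes depends on the probe. Members above 0 then numbered 32 with LOC1 and 33 with LOC3.

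**Figure D5:**
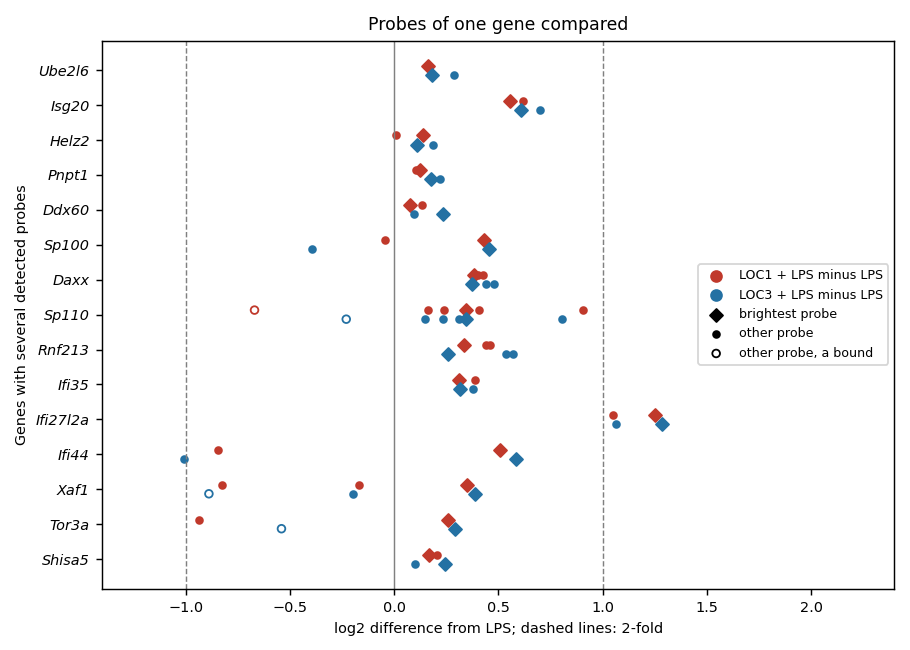
Log2 difference from LPS of each detected probe of the members with several detected probes, for LOC1 and LOC3, with diamonds for the brightest probe, small circles for others and open circles for bounds; dashed lines mark 2-fold. Probes of Daxx, Ifi35, Isg20 and Ifi27l2a lie close to each other, while those of Ifi44, Xaf1, Tor3a, Sp100 and Sp110 spread to both sides of 0.

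The ligands, receptors, kinases, factors and inhibitors of the interferon pathway, a list of 18 genes, were counted on the same scale. Of these, 18 could be compared with LOC1 and 17 with LOC3. At 2-fold, Ifnb1 and Ifna2 were called higher with each strain, beside 2.48% and 2.95% of all genes. Ifna4 was also called higher with LOC1, but only as a bound, since it was dim with LOC1 + LPS and not detected with LPS or LOC3 + LPS. No gene of the list was called lower, against 3.83% and 3.22% of all genes. The median was 0.15 with LOC1 and 0.17 with LOC3, under that of the members. Ifnb1, which encodes interferon beta, gave intensities of 1251 with LPS, 29911 with LOC1 + LPS and 18123 with LOC3 + LPS. It rose by 4.69 with LOC1 (25.8-fold) and by 3.96 with LOC3 (15.5-fold), far more than any member. Of the transcription factors on the list, Irf7 differed by 0.46 and 0.62 and Irf9 by -0.06 and 0.01. The receptor gene Ifnar1 differed by -0.66 and -0.75. Socs1, an inhibitor of the Jak kinases, differed by -0.64 and -0.34. Whether the levels of these genes bear on those of the members was not tested.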

How the data were processed

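RNA of the groups LPS, LOC1 + LPS and LOC3 + LPS was hybridised by the authors to 1-colour Agilent arrays (Cy3), 1 array per condition. The intensity of every spot was deposited as processed by Feature Extraction (12.0.3.1 per the file headers), background-subtracted and without normalization between arrays. Log2 ratios to unchallenged macrophages were deposited by the authors after GeneSpring, with cells under 2-fold left blank; the centring of the ratios is unstated. A blank was rebuilt from another column of the same probe and the difference between arrays. The submitters' processing notes also name limma and R 3.2.5.

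Control and outlier spots (135, 118 and 133) were left out. Log2 intensities were averaged over the spots of a probe, and the array's 75th percentile was subtracted. A gene was compared, by its brightest probe, if either array measured it well above background, and dimmer signals were set to the lowest such signal of the array (16.3, 14.5 and 19.8). No spot was saturated, and the number of arrays limits the precision. The t-test named in the methods needs more than 1 array per condition and was not run. Python 3.11.15, numpy 2.4.6, pandas 2.3.3 and matplotlib 3.10.9 were used, with limma 3.58.1 in R 4.3.3 for normexp (offset 50). The procedure was tested on simulated data. Probe positions are those of mm9 on the array.

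The members and lists were chosen with earlier results of these data known. By rule, all 37 members are described, array values are given for the largest and smallest differences of each role group, and at most 6 genes of the pathway list are given with values. A gene of that list is not reported here by name. Isg15, Ifi44, Epsti1 and Plac8 were singled out after their values were seen. Alternatives were 3 other scalings, normexp, stricter and no filters, the mean of probes, outlier spots kept, a 3-fold threshold and the deposited ratios, and, added after the data were seen, 2 technical SD and the members without shared probe sequence.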

Additional observations from a re-analysis of the deposited data

Results flagged for a closer look

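Znfx1 had differences from LPS of opposite direction with the 2 strains, with log2 values of -0.03 for LOC1 and 0.09 for LOC3. Both lay within 2 technical SD of 0, and the difference between them was not tested, since each condition had 1 array. Groups of 1 array allowed no search for outlying samples.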

How the results depend on the processing

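The medians of the members kept their direction against LPS under every alternative run. They were 0.60 with LOC1 and 0.57 with LOC3 under median scaling, 0.29 and 0.27 under quantile normalization, and 0.46 and 0.50 from the deposited ratios, which list 28 members. At a 3-fold threshold 0 members were higher with LOC1 and 0 with LOC3, and under quantile normalization 2 were 2-fold higher with LOC3 and 3 with LOC1. Under median scaling 6 were 2-fold higher with LOC1, with Herc6 and Ifit2 added, and 5 with LOC3, with Herc6 added. With no filter and no floor, 1 member (Plac8, not detected) was called lower with LOC1. Of the values of single members under the alternatives, 799 stayed within the technical SD and 150 moved, 70 of them under median scaling, 56 under quantile normalization and 24 with the mean of probes. The stricter filter and the lack of one, with 108 values each, could move none. The members compared were detected on every array. Against LPS, the direction changed for Znfx1, Helz2, Xaf1, Tor3a and Ifi44 as given above, and the cause was not tested. Between LOC1 and LOC3 the median of -0.02 was 0.01 under median scaling and 0.01 under quantile normalization, and members above 0 numbered 13, 21 and 22 in that order, so that many members changed direction there. Members listed as higher with LPS numbered 34, or 28 by the brightest probe only and 33 at 3-fold. No paired analysis was possible because each condition had 1 array, and for the same reason no replicate could be left out. Dim signals limit Epsti1 and the probes of Sp100, Sp110, Xaf1 and Tor3a that lay below 0. The second probe of Ifi44, at intensities of 524, 271 and 243, was brighter than these on every array.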

Other observations

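Probes designed on Ensembl transcripts and below the 75th percentile on the LPS array had a median difference of -0.28 with LOC1 (3064 probes) and -0.20 with LOC3 (3006 probes), whereas probes on RefSeq transcripts in the same range had medians of -0.00 and 0.01. At or above that percentile, the medians were 0.03 and 0.07 for Ensembl transcripts and 0.05 and 0.07 for RefSeq ones. Of the 6 member probes on Ensembl transcripts below that percentile, 5 lay below 0 with each strain, and those of Ifi44, Xaf1, Tor3a, Sp100 and Sp110 are among them.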
